A study of Homo sapiens with 6 samples.

Results

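The unfolded protein response and the endoplasmic reticulum-associated degradation (ERAD) of misfolded proteins were followed through 37 genes. They were chosen by name from the pathway, with earlier results of these data known. All were found among the 60835 gene names of the deposited count table. The RNA came from HEY, an established line of human ovarian cancer cells, in 3 control libraries (siNC) and 3 libraries with an siRNA against CCNL2 (siCCNL2), which encodes cyclin L2. All 6 libraries carry the same protocol text, 48 h with the CCNL2 siRNA, so the groups rest on the titles and genotypes, and an equal time for the controls is an assumption. The study asks how CCNL2 bears on cisplatin resistance and ferroptosis. No label states separate cultures within a group, so p-values measure the spread between these libraries alone, which may be technical.

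The endoplasmic reticulum (ER) folds secreted and membrane proteins with the help of the chaperone BiP (HSPA5), J-domain cochaperones and protein disulfide isomerases. When misfolded proteins accumulate, the sensors IRE1 (ERN1), ATF6 and PERK signal to the nucleus. IRE1 splices the mRNA of XBP1 into the form that encodes an active transcription factor, while ATF6 is cleaved in the Golgi and enters the nucleus itself, and both raise chaperones, ERAD components and parts of the protein import machinery. Proteins that fail to fold are recognised by lectins, passed to the SEL1L-SYVN1 ubiquitin ligase and returned to the cytosol for degradation. Counts per gene do not separate spliced from unspliced XBP1 mRNA, nor cleaved from whole ATF6 protein.

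The response reaches its target genes partly through short promoter elements, which is why these are shown first. The ER stress response element (ERSE: CCAAT, any 9 bases, CCACG) and its shorter form ERSE-II (ATTGG, any base, CCACG) were searched on both strands of RefSeq promoter windows of GRCh38.p14, from 250 bases before to 50 bases after each gene's start. Of the 37 genes 33 had a window, the exceptions being PDIA3, DERL1, DERL3 and SEC24D. ERSE was found in 5 of the 33 (XBP1, HSPA5, HSP90B1, CRELD2 and ERO1B), against 22 of all 27305 windows (0.0806%). ERSE-II was found in another 3 (HYOU1, SDF2L1 and HERPUD1), against 15 of all windows (0.0549%). The sites are printed 5′ to 3′ along the strand that carries the element, with its fixed letters in capitals. HSP90B1 held a second ERSE and HYOU1 a second ERSE-II, which are not shown.
XBP1, ERSE, chr22:28800598-28800626, minus strand: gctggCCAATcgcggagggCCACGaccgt
HSPA5, ERSE, chr9:125241386-125241414, minus strand: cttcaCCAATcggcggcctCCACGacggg
HSP90B1, ERSE, chr12:103930211-103930239, plus strand: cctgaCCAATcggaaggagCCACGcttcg
CRELD2, ERSE, chr22:49918549-49918577, minus strand: atggcCCAATccgagttcgCCACGagagg
ERO1B, ERSE, chr1:236282178-236282206, plus strand: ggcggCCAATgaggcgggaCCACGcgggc
HYOU1, ERSE-II, chr11:119057265-119057293, plus strand: cgcgtactcATTGGaCCACGtcccaggcc
SDF2L1, ERSE-II, chr22:21642105-21642133, minus strand: agggttttgATTGGtCCACGcttccgagg
HERPUD1, ERSE-II, chr16:56932016-56932044, plus strand: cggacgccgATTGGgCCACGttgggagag

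Each site lies upstream of its gene's RefSeq start. The elements of XBP1, HSPA5, HERPUD1 and the one shown for HSP90B1 run in the gene's own direction and those of CRELD2, ERO1B, SDF2L1 and HYOU1 against it. The UPRE, TGACGTGG, a sequence bound by XBP1 and ATF6, was found in HYOU1 alone among the 33 windows and in 0.795% of all windows, and its match in HYOU1 overlaps the ERSE-II that is not shown.

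Total counts ran from 13596286 to 18095529 per library, and mitochondrial transcripts made up 3.22% to 3.77% of them. CCNL2 fell from 258 ± 10.8 to 190 ± 11.2 CPM (counts scaled to a library size of 1000000 with TMM factors; mean ± SD, n = 3 here and below), or by 26.3% (log2 fold change -0.44, exact two-sided permutation p = 0.1, the smallest that 3 against 3 allows). Among markers of the line, KRT8 and KRT18, KRT7 and PAX8 were all above 100 CPM on average in siNC, EPCAM stood at 1.84 CPM and MUC16 at 0.0197 CPM, and 5 of 7 tested line markers fell (KRT8, KRT18, KRT7, PAX8 and WT1), VIM and EPCAM not being called. For comparison, 16.5% of all tested genes fell. At an average of 20 CPM or more 23.6% of all genes fell, and 4 of 5 line markers did. WT1 did not pass with siCCNL2 replicate 1 left out (adjusted p = 0.098). Leukocyte and erythroid markers were not high enough to test. Their summed TPM-like scores were low but not 0. The leukocyte sum was 2.02 ± 1.08 in siNC and 1.22 ± 1.13 in siCCNL2, and the erythroid sum 0.357 ± 0.451 and 0.0675 ± 0.0600. CD3E was at 0 in all siNC libraries and HBA1 in all 6 libraries. Endothelial markers fell in 2 of 3 tested genes, with a summed TPM-like score of 85.0 to 89.1 in siNC and 33.3 to 40.5 in siCCNL2, nearly all of it CDH5. HEY is a cell line, and CDH5 counts do not by themselves show that endothelial cells were present. The part of that difference in the results below was not tested. Fewer cells with CDH5 and less of its RNA per cell cannot be told apart in such libraries.

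Of the 37 genes 36 passed the filter on low counts, and 18 rose, 4 fell and 14 were not called in siCCNL2. Calls are adjusted p-values under 0.05 in edgeR's quasi-likelihood test, adjusted over 15346 genes. Of all tested genes 33.6% were called, 17.2% higher and 16.5% lower. The pathway genes were well expressed, with a median of 91.9 CPM against 19.1 CPM over all tested genes, and calls are more frequent at such levels. Among the 7516 genes averaging at least 20 CPM 49.3% were called, and among the 34 pathway genes at that level 21 (61.8%) were called, so the share of called genes lay nearer to that background than to 33.6%. The direction was less even, since 18 of the 34 rose where 25.7% of all genes at that level did, and 3 fell where 23.6% did. The CPM of the groups did not overlap for 26 of the 36 (19 with siCCNL2 above, 7 below), against 43.9% of all tested genes (22.1% above, 21.8% below). That share was not computed at 20 CPM or more, so the contrast is not matched for level. The median log2 fold change was 0.10 over the 36 genes and 0.0023 over all tested genes. Changes were small, with a median size of 0.18 on the log2 scale against 0.19 over all tested genes. ERO1A was the only tested member to change at least 1.5-fold, a size reached by 10.98% of all tested genes. These comparisons of size are with genes of every level, low counts included, and were not matched at 20 CPM or more.

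**Figure D1:**
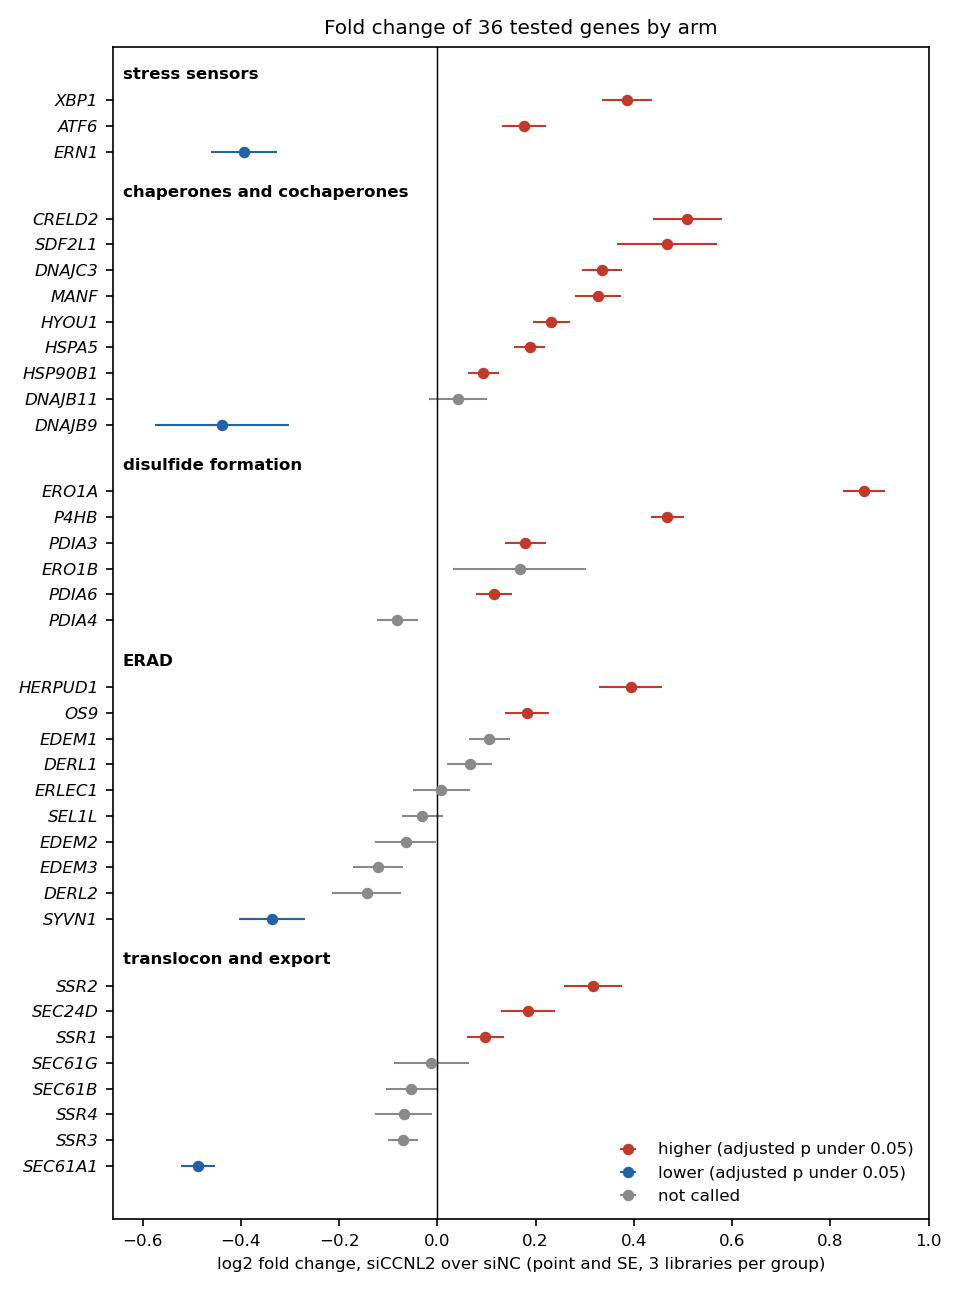
Log2 fold change of siCCNL2 over siNC for the 36 tested genes, with its standard error, grouped by arm and ordered by size within an arm (red, higher; blue, lower; grey, not called; 3 libraries per group). Chaperone and disulfide genes lie mostly to the right of 0, ERAD and translocon genes lie on both sides, and the lowest values belong to SEC61A1 (-0.49), DNAJB9 (-0.44), ERN1 (-0.39) and SYVN1 (-0.34).

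The genes of the sensors did not move together. XBP1 rose, as did ATF6, while ERN1, which encodes the kinase and RNase IRE1 that acts on XBP1 mRNA, fell. XBP1 (ENSG00000100219, chromosome 22, 28794555 to 28800597 of GRCh38) stood at 67.4, 69.7 and 70.5 CPM in siNC and at 85.6, 93.7 and 92.2 CPM in siCCNL2. The lowest siCCNL2 library lay well above the highest siNC library. Its log2 fold change was 0.39 (SE 0.051, edgeR adjusted p = 1.75e-06). ERN1 (chromosome 17, 64039080 to 64130819) was at 38.0, 39.0 and 37.8 CPM in siNC and at 30.1, 26.9 and 30.2 CPM in siCCNL2. Its 3 siNC libraries were nearly equal and all siCCNL2 libraries lay below them (log2 fold change -0.39, SE 0.068, edgeR adjusted p = 6.09e-05). ATF6 rose less, from 102 ± 2.47 to 115 ± 4.29 CPM (log2 fold change 0.18, edgeR adjusted p = 0.0039). The ATF6 to ERN1 ratio of the TPM-like score, which is scaled by gene length, went from 3.22 ± 0.126 to 4.80 ± 0.270, without overlap between the groups. This follows from the levels of ATF6 and ERN1, which were already apart in opposite directions.

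Of 9 ER chaperones and cochaperones 7 rose, DNAJB9 fell and DNAJB11 was not called, with a median log2 fold change of 0.23. At 20 CPM or more 7 of 8 rose, where 25.7% of all genes did. The largest rises in this arm were those of CRELD2 and SDF2L1. CRELD2, a secreted stress-induced ER protein, was at 23.9, 26.4 and 26.4 CPM in siNC and at 37.5, 35.6 and 35.9 CPM in siCCNL2. The groups were far apart, and the log2 fold change was 0.51 (SE 0.070, edgeR adjusted p = 3.31e-06). SDF2L1, a partner of BiP and its J-domain proteins, was at 15, 17.9 and 20.2 CPM in siNC and at 21.5, 25.9 and 26.3 CPM in siCCNL2. Its libraries spread widely in both groups, siNC replicate 3 coming within 2 CPM of siCCNL2 replicate 1 (log2 fold change 0.47, SE 0.102, edgeR adjusted p = 8.80e-04).

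DNAJC3, or P58IPK, a cochaperone of BiP, was at 134, 134 and 128 CPM in siNC and at 165, 167 and 167 CPM in siCCNL2. The siCCNL2 libraries spanned 1.03% of their mean, the narrowest spread among the chaperones (log2 fold change 0.34, SE 0.041, edgeR adjusted p = 5.13e-07). MANF, a secreted ER protein that binds BiP, rose from 83.4 ± 0.352 to 105 ± 3.77 CPM (log2 fold change 0.33, edgeR adjusted p = 5.37e-06). HYOU1, a large HSP70-type chaperone that also exchanges the nucleotide of BiP, rose by 0.23 on the log2 scale (edgeR adjusted p = 2.71e-05).

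HSPA5, which encodes BiP, the central ER chaperone (chromosome 9, 125234853 to 125241382, minus strand), was at 955, 916 and 969 CPM in siNC and at 1053, 1092 and 1090 CPM in siCCNL2. All siCCNL2 libraries were higher, by 13.9% in the fit (log2 fold change 0.19, SE 0.032, edgeR adjusted p = 4.94e-05). HSP90B1, the ER chaperone GRP94, rose by 6.67% (log2 fold change 0.09, edgeR adjusted p = 0.0244), a call lost under 10 of 18 alternatives, among them the fits without siCCNL2 replicate 3 (0.0572) or 2 (0.0559) and those without siNC replicate 3 (0.0874) or 2 (0.0523). DNAJB9, or ERdj4, a J-domain protein that holds BiP on IRE1, was at 9.627, 7.897 and 8.597 CPM in siNC and at 6.308, 5.965 and 6.998 CPM in siCCNL2. It was the only chaperone gene called lower (log2 fold change -0.44, SE 0.137, edgeR adjusted p = 0.0153). DNAJB9 was thinly counted, with 80 to 163 reads per library, and it did not pass once siNC replicate 1 (adjusted p = 0.092) or siCCNL2 replicate 2 (0.0536) was left out. It also shares 183 exonic bases with THAP5, which rose, and 99 with PNPLA8, which fell, both on the opposite strand. Whether counting used strand is not given in the sources used here. DNAJB11, a further cochaperone, was at 88.2 ± 4.20 and 91.1 ± 8.75 CPM, with siCCNL2 replicates 1 and 2 at 83.3 and 101 CPM around all siNC values.

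**Figure D2:**
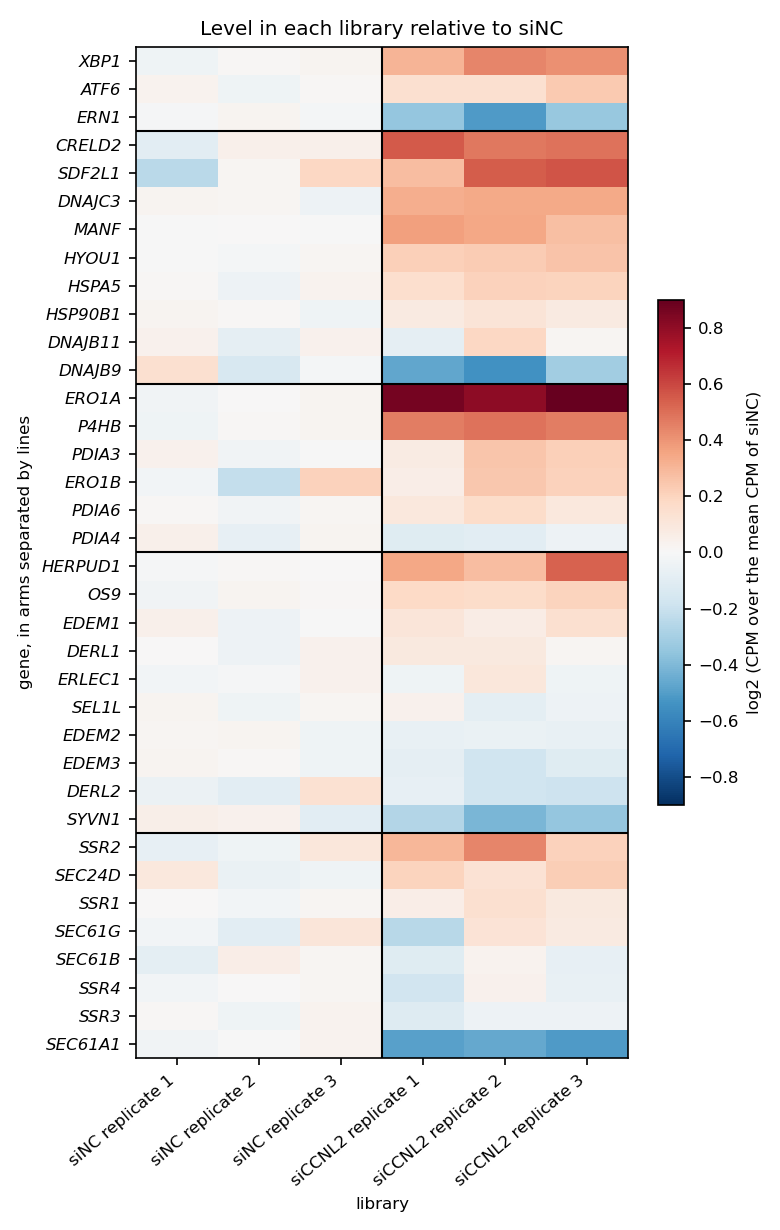
Level of each tested gene in each of the 6 libraries, as log2 of its CPM over the mean CPM of siNC (red above, blue below), with lines between the arms. The 3 siCCNL2 columns share their colour for ERO1A, P4HB, CRELD2, SEC61A1 and ERN1, while DNAJB11 and SEC61G change colour between siCCNL2 replicates 1 and 2.

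The genes of disulfide bond formation rose in 4 of 6 cases. At 20 CPM or more this was 4 of 5, where 25.7% of all genes rose. ERO1A, the oxidase that recharges protein disulfide isomerase (chromosome 14, 52639915 to 52695900, minus strand), was at 121, 124 and 126 CPM in siNC and at 224, 216 and 236 CPM in siCCNL2. This 1.83-fold rise was the largest of the 36 genes (log2 fold change 0.87, SE 0.042, edgeR adjusted p = 7.82e-14). P4HB, which encodes protein disulfide isomerase, the main partner of that oxidase (chromosome 17, 81843159 to 81860856, minus strand), was at 410, 423 and 427 CPM in siNC and at 577, 589 and 577 CPM in siCCNL2. The rise was 1.38-fold, with narrow groups far apart (log2 fold change 0.47, SE 0.033, edgeR adjusted p = 6.27e-11). The ERO1A to P4HB ratio of the score went from 0.470 ± 0.0019 to 0.621 ± 0.0337, so ERO1A moved more than its partner and the ratios of the groups did not overlap.

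Other isomerases moved less. PDIA3, or ERp57, which works with calnexin on glycoproteins, was at 336, 321 and 326 CPM in siNC and at 344, 390 and 381 CPM in siCCNL2. The groups were separated by only 8 CPM because siCCNL2 replicate 1 lay low (log2 fold change 0.18, edgeR adjusted p = 0.0014), and the transcribed copy PDIA3P1, at 20.4 and 24.5 CPM, can share its reads. PDIA6, a regulator of IRE1 and an isomerase, rose by 0.12 (edgeR adjusted p = 0.0159), a call lost without siNC replicate 2 (0.0846) or siCCNL2 replicate 2 (0.0625). PDIA4, or ERp72, was at 186 ± 8.47 and 176 ± 3.98 CPM (log2 fold change -0.08, SE 0.042, edgeR adjusted p = 0.14), with overlapping groups. ERO1B, the second ERO1 oxidase, was at 7.62 ± 1.11 and 8.59 ± 0.560 CPM and was not called (log2 fold change 0.17, SE 0.136, edgeR adjusted p = 0.377). On the length-scaled score ERO1A exceeded ERO1B 25.02 ± 3.49 times in siNC and 40.1 ± 3.28 times in siCCNL2.

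Of the 10 tested ERAD genes 2 rose, 1 fell and 7 did not pass the test, with a median log2 fold change of -0.01. All 10 averaged 20 CPM or more, where 49.3% of all genes were called. HERPUD1, a membrane scaffold of the ligase complex (chromosome 16, 56932142 to 56944864), was at 41.4, 42.0 and 41.9 CPM in siNC and at 53.3, 50.7 and 60.5 CPM in siCCNL2. The siNC libraries were nearly identical and the siCCNL2 libraries spread over 17.9% of their mean, all above siNC (log2 fold change 0.39, SE 0.064, edgeR adjusted p = 3.18e-05). SYVN1, or HRD1, the ubiquitin ligase itself (chromosome 11, 65121780 to 65134532), was at 41.4, 41.1 and 37.3 CPM in siNC and at 33.35, 29.98 and 31.37 CPM in siCCNL2. It moved opposite to its scaffold, and the groups did not overlap (log2 fold change -0.34, SE 0.068, edgeR adjusted p = 3.72e-04). SYVN1 shares 356 exonic bases with MRPL49 on the opposite strand, which rose, and 398 with FAU on the same strand, which was not called. The HERPUD1 to SYVN1 ratio of the score went from 1.67 ± 0.104 to 2.77 ± 0.273, which follows from their opposite changes.

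SEL1L, the adaptor that holds SYVN1 in place, was at 183, 176 and 183 CPM in siNC and at 185, 170 and 175 CPM in siCCNL2. Its groups overlapped (log2 fold change -0.03, SE 0.042, edgeR adjusted p = 0.62). Its SYVN1 to SEL1L score ratio went from 0.386 ± 0.0264 to 0.311 ± 0.0036, without overlap. Of the 2 lectins that bring glycoproteins to the ligase, OS9 rose from 94.7 ± 1.93 to 107 ± 1.41 CPM (log2 fold change 0.18, edgeR adjusted p = 0.0024), and ERLEC1, at 51.2 ± 1.16 and 51.5 ± 2.91 CPM, was not called.

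The 3 EDEM genes encode mannosidases or mannosidase-like proteins that mark glycoproteins for disposal, and they were not called in the fit of all libraries. EDEM1 lay higher in every siCCNL2 library (149, 140 and 144 CPM against 155, 151 and 159 CPM; log2 fold change 0.11, edgeR adjusted p = 0.053) and was called under 4 of 18 alternatives, a filter of 1 CPM (0.0458), limma-voom (0.047) and the fits without siNC replicate 1 (0.0469) or siCCNL2 replicate 2 (0.0364). EDEM3 lay lower in every siCCNL2 library (log2 fold change -0.12, edgeR adjusted p = 0.069) and was called only with upper-quartile factors (0.0357). EDEM2 had a log2 fold change of -0.06 (edgeR adjusted p = 0.47). The EDEM1 to EDEM3 score ratio went from 2.13 ± 0.0707 to 2.496 ± 0.0641. The derlins, membrane proteins of the exit channel, were not called either, DERL1 being at 106 ± 2.93 and 111 ± 3.01 CPM and DERL2 at 38.0 ± 3.36 and 34.3 ± 1.501 CPM. DERL3 had 2 reads in siNC replicate 2 and in siCCNL2 replicate 1, none in the other 4 libraries, and was not tested. Most of its exonic bases (2923 of 3796) overlap SMARCB1 on the opposite strand.

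**Figure D3:**
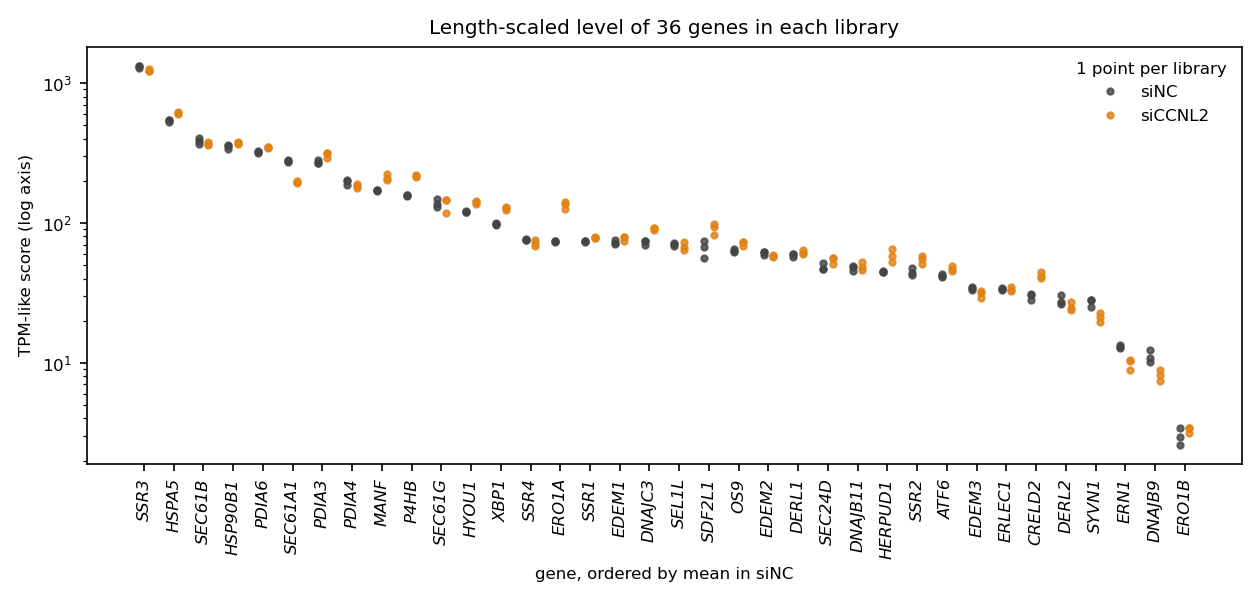
TPM-like score of 36 genes (log axis) in each library, grey for siNC and orange for siCCNL2, with genes ordered by their siNC mean. SSR3 stands highest at a mean of 1304, HSPA5 next at 539, and the lowest are ERN1, DNAJB9 and ERO1B. The groups are visibly apart for ERO1A, P4HB, SEC61A1 and XBP1.

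Genes of the translocon, the channel through which new proteins enter the ER, were split. SEC61A1, which encodes the pore itself (chromosome 3, 128051641 to 128071705), was at 471, 480 and 492 CPM in siNC and at 342, 350 and 337 CPM in siCCNL2. This fall of 28.6% was the largest among the 36 genes (log2 fold change -0.49, SE 0.034, edgeR adjusted p = 6.00e-11), and the groups were more than 100 CPM apart. SEC61A1 shares 344 exonic bases with RUVBL1 on the opposite strand, which was at 122 CPM in both groups. The small subunits of the same channel were not called: SEC61B was at 86.0 ± 4.44 and 83.0 ± 4.26 CPM (log2 fold change -0.05, SE 0.053) and SEC61G at 55.4 ± 4.03 and 55.2 ± 7.52 CPM (log2 fold change -0.01, SE 0.076). The SEC61A1 to SEC61B score ratio was 0.746, 0.687 and 0.724 in siNC, all above the siCCNL2 values of 0.551, 0.511 and 0.531. The SEC61B to SEC61G ratio overlapped between the groups (2.78 ± 0.262 and 2.71 ± 0.302).

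The 4 SSR genes encode the TRAP complex, which assists the channel. SSR2 was at 70.8, 72.8 and 80.2 CPM in siNC and at 91.9, 101 and 86.3 CPM in siCCNL2, and rose (log2 fold change 0.32, SE 0.059, edgeR adjusted p = 1.41e-04). SSR1 rose by 0.10, close to the threshold (edgeR adjusted p = 0.0466), and was lost under 12 of 18 alternatives, including the DESeq2 Wald test (0.0663) and fits that left out siCCNL2 replicate 3 (0.096) or 2 (0.15), or siNC replicate 2 (0.158) or 1 (0.0909). SSR4, at 61.1 ± 0.896 and 58.4 ± 4.35 CPM, was not called.

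SSR3 was the most abundant of the 37 transcripts, at 1812, 1745 and 1832 CPM in siNC and 1654, 1741 and 1737 CPM in siCCNL2. It was not called (log2 fold change -0.07, SE 0.031, edgeR adjusted p = 0.0824), though it passed with upper-quartile factors (0.0222), without a composition factor (0.0274) and by limma-voom (0.0348). On the score SSR3 exceeded SSR1 17.8 ± 0.181 times in siNC and 15.8 ± 0.298 times in siCCNL2, although both proteins belong to the same complex. The score divides by a gene length that takes SSR1 as 2.28 times as long as SSR3, and the sources used here do not give how that length was set. The ratio of raw counts was 7.78 in siNC. SEC24D, a cargo adaptor of the COPII coat that carries proteins out of the ER, rose from 63.0 ± 3.63 to 71.6 ± 2.32 CPM (log2 fold change 0.18, edgeR adjusted p = 0.0108), a call lost without siNC replicate 2 (0.0659) or siCCNL2 replicate 3 (0.0581).

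Among the 10 tested genes with overlapping groups, 5 had their lowest siCCNL2 value in replicate 1 and their highest in replicate 2, the library with the fewest counts (DNAJB11, ERO1B, SEC61B, SEC61G and SSR4). SEC61G was at 46.6, 60.4 and 58.6 CPM in siCCNL2 replicates 1 to 3, SSR4 at 54.1, 62.8 and 58.3 CPM, and DNAJB11 at 83.3, 101 and 89.5 CPM. The other 5 (PDIA4, SEL1L, DERL1, DERL2 and ERLEC1) had other orders, SEL1L being highest in replicate 1 and lowest in replicate 2. Sums over an arm are weighted towards its most abundant genes. The summed TPM-like score of the chaperone arm was 1417, 1398 and 1408 in siNC and 1619, 1599 and 1624 in siCCNL2, and that of the disulfide arm went from 1025 ± 17.0 to 1190 ± 14.4. The translocon and export arm had 2346 ± 26.5 and 2194 ± 34.2, most of it SSR3 (1304 and 1233), with SEC61A1 at 276 and 196, and ERAD overlapped at 494 ± 4.52 and 506 ± 19.5. Over all 37 genes the sum went from 5426 ± 45.3 to 5688 ± 53.7, or 1.05 times the siNC mean.

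**Figure D4:**
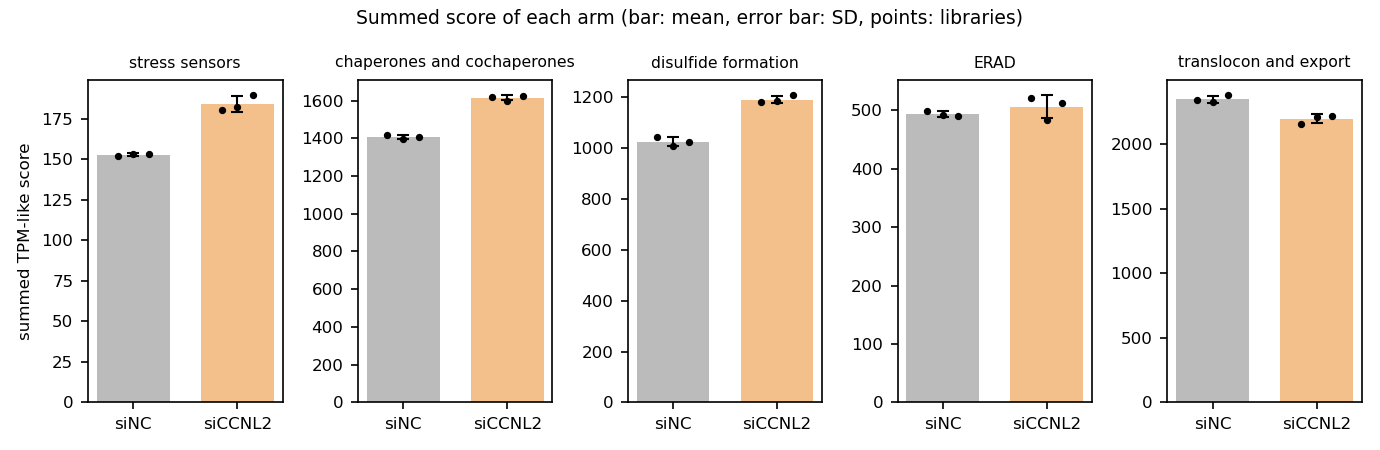
Summed TPM-like score of each arm in siNC and siCCNL2 (bars, mean of 3 libraries; error bars, SD; points, libraries; each panel has its own axis from 0). The sensor, chaperone and disulfide arms are higher in every siCCNL2 library, the translocon and export arm is lower, and the ERAD libraries overlap. Most of the sensor sum is XBP1 (98.0 in siNC and 127 in siCCNL2), while ERN1, in the same arm, went from 13.0 to 9.83.

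Sorted by regulator rather than by role, genes commonly given as ATF6 targets moved more evenly than those given as IRE1-XBP1 targets. Of the 9 ATF6 targets (HSPA5, HSP90B1, PDIA4, HYOU1, HERPUD1, SEL1L, CRELD2, SDF2L1 and MANF) 7 rose and PDIA4 and SEL1L were not called, with a median log2 fold change of 0.23. Of the 11 IRE1-XBP1 targets 4 rose (DNAJC3, PDIA6, SEC24D and SSR1), 2 fell (DNAJB9 and SEC61A1) and DNAJB11, EDEM1, DERL2, SEC61B and SSR3 were not called, with a median of 0.04. Of the 4 that rose, DNAJC3 alone kept its call under all alternatives of scaling, filter, tool, block and library, as did 6 of the 7 ATF6 targets that rose, the exception being HSP90B1. At 20 CPM or more, 7 of 9 ATF6 targets (77.8%) and 5 of 10 IRE1-XBP1 targets (50%) were called. The share over all genes at that level was 49.3%, so the IRE1-XBP1 list lay near it. Many of these genes answer to both factors, the assignment rests on background knowledge, and the difference between the lists was not tested.

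The promoter elements shown above divide the genes in part the same way by construction, since 6 of the 8 genes that carry one are also in the ATF6 list. Of the 8 genes with ERSE or ERSE-II 7 rose and ERO1B was not called, with a median log2 fold change of 0.31. Of the 25 genes with a window and neither element 9 rose, 4 fell and 12 were not called, with a median of -0.01. For comparison, 17.2% of all tested genes rose, and 25.7% of those at 20 CPM or more. The motifs were chosen after the data had been seen, and the difference was not tested. ERO1A and P4HB, the largest risers of the disulfide arm, were among the 25, and so were all 4 genes that fell. No match says only that these exact letters are absent from this window. Outside the 37 genes, ERSE windows belonged to 9 tested genes, of which 4 rose and 5 were not called. The 4, named here after their values were seen, were CANX, the lectin chaperone calnexin (log2 fold change 0.28, edgeR adjusted p = 2.28e-07), FICD, which AMPylates BiP (0.67, 0.0020), TRIM5 (0.28, 0.0053) and ZNF17 (0.77, 0.0149). CALR, calreticulin, was among the 5 (0.03, 0.446). ALG12, which lies head to head with CRELD2 and shares its element, was at 9.72 and 10.4 CPM and was not called (0.10, 0.565). ZNF17 did not pass with siCCNL2 replicate 1 (adjusted p = 0.0519) or 3 (0.0642), or siNC replicate 2 (0.073) or 3 (0.0622), left out. With ERSE-II added, 4 of 16 such genes rose, 2 fell and 10 were not called. Among the 11 of these at 20 CPM or more 2 rose and 2 fell (36.4% called, against 49.3% of all genes at that level).

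**Figure D5:**
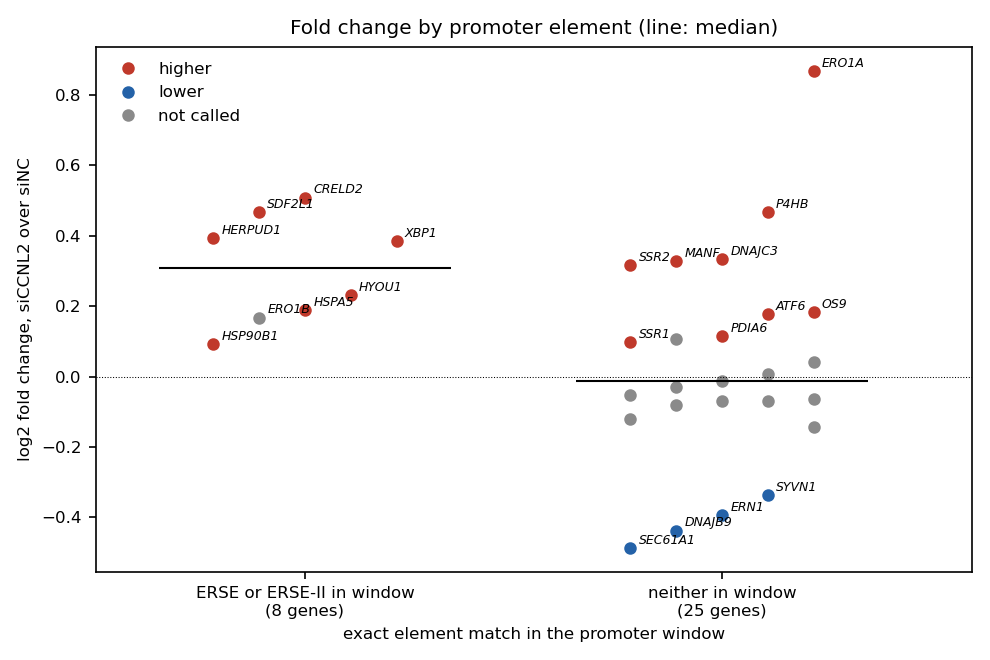
Log2 fold change of siCCNL2 over siNC for the 33 genes with a promoter window, divided by an exact ERSE or ERSE-II match (red, higher; blue, lower; grey, not called; line, median). All 8 genes with an element lie above 0, while the 25 without one run from -0.49 (SEC61A1) to 0.87 (ERO1A). The motifs were chosen after the data had been seen.

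Other genes of the same pathway gave the setting, and the shares called among those averaging 20 CPM or more are given for comparison with the 49.3% of all genes at that level. Of 33 other ER folding genes 11 rose and 4 fell, with a median log2 fold change of 0.04 (56.5% called among 23 at that level). MESD, the chaperone of LDL receptor family proteins, was at 29.4, 27.4 and 25.2 CPM in siNC and at 68.2, 75.9 and 69.9 CPM in siCCNL2 (log2 fold change 1.38), and PRDX4, the ER peroxiredoxin that uses hydrogen peroxide to drive disulfide formation, rose from 52.3 ± 1.04 to 105 ± 6.41 CPM (1.00). Both changes exceeded that of ERO1A. TMX4, a membrane thioredoxin-like protein, rose by 0.71, while PPIC, a secretory-pathway cyclophilin, fell from 12.3 ± 0.510 to 4.72 ± 0.610 CPM (-1.37). QSOX1, a sulfhydryl oxidase, fell by 0.26 on the log2 scale and CNPY3 by 0.22, the latter lost without siCCNL2 replicate 3 (adjusted p = 0.091) or 2 (0.15), or siNC replicate 3 (0.0865) or 1 (0.057).

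Of 29 other ERAD genes 5 rose and 4 fell (median -0.0015). Of the 27 at 20 CPM or more 29.6% were called, against 49.3% of all genes at that level. ERLIN2, a scaffold of ER lipid domains (log2 fold change 0.44), AUP1 (0.27) and UBE2K (0.19) rose most. TMUB2 (-0.35) and HM13, the signal peptide peptidase (-0.31), fell most, together with FAM8A1, a cofactor of SYVN1 (-0.25, edgeR adjusted p = 0.0433), whose call was lost without any of the libraries except siCCNL2 replicate 2. VCP, the ATPase that pulls ERAD substrates into the cytosol, stood at 475 and 469 CPM and was not called; it is named for its role, after its values were seen.

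Of 21 further genes of protein import and signal peptide removal 6 rose and 7 fell (median 0.02; 72.2% called among 18 at 20 CPM or more). TRAM2, a translocon-associated protein, fell from 366 ± 5.71 to 242 ± 0.828 CPM (log2 fold change -0.60, edgeR adjusted p = 2.28e-12), a larger fall than that of SEC61A1. SRP14 and SRP54, of the signal recognition particle, both fell by 0.25 on the log2 scale, and SRP68, of the same particle, rose by 0.18. HSPA13 (0.38) and SEC11C, of the signal peptidase (0.29), rose, SEC11C not with siNC replicate 3 (adjusted p = 0.0615) or siCCNL2 replicate 2 (0.0572) left out. Among 21 genes of COPII export 6 rose, led by SURF4, a cargo receptor (0.37), SEC24C (0.31) and SEC13 (0.23), 45% being called among 20 at that level, and 3 fell, MCFD2 (-0.35), SEC23B (-0.20) and MIA3 (-0.17), the last lost by the DESeq2 Wald test (0.0566) and without siCCNL2 replicate 3 (0.0615) or 2 (0.117), or siNC replicate 2 (0.115) or 1 (0.139).

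Of 16 further regulators of the response 5 rose and 6 fell (76.9% called among 13 at 20 CPM or more). TRAF2, the adaptor that IRE1 recruits (log2 fold change 0.35), NFYB, a subunit of the factor that binds the CCAAT part of ERSE (0.29), and CREB3L2, a relative of ATF6 (0.28), rose. WFS1, the wolframin gene and a target of the response (-0.57), YOD1, a deubiquitinase of ERAD (-0.46), and NFYC, another subunit of the CCAAT-binding factor (-0.28), fell. The PERK arm acts through translation of ATF4. Listed under it were 9 tested genes, of which 6 rose, against 17.2% of all tested genes: TRIB3 (0.89), PPP1R15A (0.68), ATF4 (0.27), SESN2 (0.18), DDIT3 (1.18, at 1.40 and 3.21 CPM) and ATF3 (0.54). At 20 CPM or more 4 of 5 rose, against 25.7% of all genes at that level. The activity of PERK was not measured, so these counts do not tie the rises to PERK. EIF2AK3, which encodes PERK, was at 13.5 ± 1.28 and 14.1 ± 1.51 CPM and was not called, nor were CEBPB and CHAC1. ASNS, at 0.349 and 0.565 CPM, was too low to test. Genes sharing exons with ASNS were not looked up, so its low count need not mean low expression. ATF3 did not pass with siNC replicate 1 (adjusted p = 0.108) or siCCNL2 replicate 2 (0.0904) left out, nor SESN2 with siNC replicate 1 (0.053) or siCCNL2 replicate 3 (0.0664) left out.

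Active IRE1 is also known to cut other mRNAs at the ER. Of 6 tested transcripts reported as such targets 5 fell, against 16.5% of all tested genes: PDGFRB (log2 fold change -0.71), HGSNAT (-0.67), SPARC (-0.51, from 730 ± 16.6 to 514 ± 18.4 CPM), COL6A1 (-0.41) and PMP22 (-0.28). Only 3 of them averaged 20 CPM or more, and these 3 fell, where 23.6% of all genes at that level did. SCARA3 was at 10.6 ± 0.0152 and 12.3 ± 1.28 CPM and was not called. PMP22 did not pass with any 1 of 4 libraries left out, siCCNL2 replicate 3 (adjusted p = 0.125) or 1 (0.0722), or siNC replicate 3 (0.0529) or 1 (0.0648). BLOC1S1, the transcript most often used to follow this cutting, averaged 0.535 and 0.695 CPM and was too low to test. Exons shared with other genes were looked up for the members alone, so its low count need not mean low expression. ERN1 mRNA itself fell, and neither the activity of IRE1 nor the stability of these transcripts was measured.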

How the data were processed

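Members and lists were chosen with earlier results of these data known. The count table deposited by the authors holds whole-number read counts per gene. A second deposited table gives the authors' length-scaled score, TPM-like, with a sum of 1000000 over distinct names. Per the submitters' processing notes, GRCh38, HTSeq 2.0.1, HISAT2 and fastp 0.23.0 were used. Names repeated over several of the 62710 rows were used once. Genes were filtered with filterByExpr and tested with edgeR 4.0.16 in R 4.3.3 (TMM factors, glmQLFit, glmQLFTest, no covariates, Benjamini-Hochberg over 15346 genes), also run on simulated data with known changes. The standard error is the log2 fold change over the square root of F. Depth sets the counting precision, lowest for DNAJB9 and ERO1B. Alternatives used DESeq2 1.42.0, limma 3.58.1, other factors, filters and thresholds, a block and the omission of each library. Coordinates of genes are those of the deposited table; overlaps and copies came from GENCODE 29 and promoters from RefSeq (GRCh38.p14). All members and CCNL2 are named, and from each other list up to 3 called genes per direction with the largest change and a mean of 5 CPM or more in the higher group; the PERK arm and line markers are named whatever their result. For transcripts cut by IRE1 all were named. Promoter motifs and score ratios were chosen after the data had been seen.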

Additional observations from a re-analysis of the deposited data

How the results depend on the processing

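Of the 22 genes called, 17 kept their call and direction under every alternative of scaling, filter, tool, block and library, and 5 of these (XBP1, CRELD2, P4HB, ERO1A and SEC61A1) also passed a test against a fold of 1.2. No gene changed direction with a call. Counts moved by more than 1.5 times mainly in that test, edgeR's glmTreat, which called 4 of the genes higher and 1 lower (all tested genes, 747 higher and 688 lower). By arm it called 1 sensor, 1 chaperone and 2 disulfide genes higher, 0 ERAD and 0 translocon genes higher and 0 sensor, 0 chaperone and 0 ERAD genes lower, with 1 ATF6 target higher and, of IRE1-XBP1 targets, 0 higher and 1 lower. At an adjusted p under 0.01, 0 chaperones and 1 IRE1-XBP1 target were lower, and 1 translocon gene and 1 IRE1-XBP1 target higher. With log2 scores and a pseudocount of 1 or 0.1, 1 translocon gene and 2 IRE1-XBP1 targets were higher. Upper-quartile factors called 2 ERAD genes lower, and these factors, no composition factor and limma-voom each called 2 translocon genes lower. Without single libraries, 14 to 18 genes were called higher and 3 to 4 lower, chaperones lower 0 to 1, translocon genes higher 1 to 3, and IRE1-XBP1 targets higher 1 to 4 and lower 1 to 2. For genes of the pathway lists and line markers, libraries that change a call are given beside the gene (overlap partners were not followed), and the cause was not tested. A replicate block in the fit also gave 18 higher and 4 lower. Same-numbered libraries correlated at 0.041, 0.022 and 0.036 in their deviations from the group means. All are under 0.1, so the numbers were not taken to pair the samples, although each library correlated best with its own number, a hint from the data and not the design. The median of all tested genes moved by at most 0.018 on the log2 scale with the scaling.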
